A study of Caenorhabditis elegans with 2 samples.

Results

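The mitochondrial ribosomal protein genes of Caenorhabditis elegans were taken as all protein-coding genes whose names start with mrpl- (large subunit) or mrps- (small subunit) in the Ensembl annotation of WBcel235, the assembly also called ce11. There were 70 of them, 41 mrpl- and 29 mrps- genes, among 19973 protein-coding genes of the nuclear chromosomes, and all 70 are transcribed in the nucleus. Chromatin from whole late embryos of mixed sex was immunoprecipitated from strain OP120, genotype unc-119(ed3) III; wgIs120, which carries an eGFP-tagged CEH-30 transgene. Per the labels the antibody is ceh-30, the age is unknown, and there were 2 biological replicates, which form 1 group. Every animal carried the unc-119(ed3) allele and the transgene, and there was no second genotype, treatment or stage. The labels describe the assay as against the tagged protein, and they do not say whether the antibody also binds CEH-30 from the endogenous locus. The control library that the labels name was not analysed here.

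CEH-30 is a homeodomain transcription factor of the BarH class, known in worms for protecting a set of male-specific sensory neurons from programmed cell death. Mitochondrial ribosomes translate the few membrane proteins of the respiratory chain that the mitochondrial genome encodes. Their RNAs come from that genome, while their proteins are encoded in the nucleus, translated in the cytosol and imported, so the promoters of the protein genes lie in nuclear chromatin where a transcription factor can be mapped. Many nematode genes are packed in operons, runs of genes on the same strand transcribed from a promoter ahead of the leading gene, and many others share a promoter region with a neighbour on the opposite strand.

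The sequences of 10 summits show the DNA under the strongest signal at members of both subunits. They belong to 10 of the 12 members with the highest pooled signal, the others being mrpl-23 and mrpl-17, which are named only. Each runs 101 bases centred on the summit of the strongest pooled peak, and each is written 5′ to 3′ on the strand of the member gene from the RefSeq genome sequence of ce11. Capitals mark, on either strand, the homeodomain word TAATTG, the related words TAATTA as well as TAAACG, the word GACGCA together with GCGCCA, and the word CGCAAAC, which recurs in this set. All 10 summits lay in intergenic sequence.
mrps-7 (chrIV:14767862-14767962, minus strand): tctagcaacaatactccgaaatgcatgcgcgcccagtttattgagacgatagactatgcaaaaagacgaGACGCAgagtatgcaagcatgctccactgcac
mrps-21 (chrIV:4660442-4660542, minus strand): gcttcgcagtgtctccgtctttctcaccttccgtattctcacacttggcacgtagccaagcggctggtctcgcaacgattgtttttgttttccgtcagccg
mrpl-12 (chrIII:10707192-10707292, plus strand): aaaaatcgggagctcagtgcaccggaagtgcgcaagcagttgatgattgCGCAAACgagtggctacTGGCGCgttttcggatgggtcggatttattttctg
mrpl-28 (chrII:156084-156184, minus strand): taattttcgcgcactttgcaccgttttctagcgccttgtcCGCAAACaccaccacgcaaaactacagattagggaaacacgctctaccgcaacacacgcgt
mrps-17 (chrIII:6431909-6432009, minus strand): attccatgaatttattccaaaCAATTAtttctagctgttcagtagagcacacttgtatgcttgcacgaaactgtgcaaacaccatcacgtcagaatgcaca
mrpl-40 (chrIII:86510-86610, plus strand): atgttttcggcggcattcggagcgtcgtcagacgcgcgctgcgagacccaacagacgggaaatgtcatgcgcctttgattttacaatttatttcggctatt
mrpl-49 (chrV:12728389-12728489, plus strand): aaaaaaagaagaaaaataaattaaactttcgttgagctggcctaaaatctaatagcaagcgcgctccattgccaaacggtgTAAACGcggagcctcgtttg
mrpl-55 (chrIV:443860-443960, plus strand): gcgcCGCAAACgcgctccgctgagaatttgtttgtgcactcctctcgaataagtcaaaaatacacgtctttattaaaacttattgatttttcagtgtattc
mrpl-45 (chrIII:1202269-1202369, minus strand): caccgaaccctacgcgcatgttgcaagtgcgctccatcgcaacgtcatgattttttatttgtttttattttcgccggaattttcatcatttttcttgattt
mrps-28 (chrV:19644065-19644165, plus strand): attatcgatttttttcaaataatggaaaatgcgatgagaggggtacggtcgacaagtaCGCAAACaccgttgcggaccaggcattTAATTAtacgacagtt
The sequence at mrps-7 held GACGCA and no homeodomain word, and homeodomain words stood at mrps-17, mrpl-49 and mrps-28. CGCAAAC stood at 4 of the 12 members of highest signal, namely mrpl-12, mrpl-28, mrpl-55 and mrps-28. The sequences at mrps-21, mrpl-40 and mrpl-45 held none of the words.

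A gene was counted as carrying a summit when the highest point of a peak lay from 1000 bp upstream to 500 bp downstream of its 5′ end. Each deposited list gives a signal per peak, the authors' own peak height, whose scale belongs to that list. Signals are therefore compared between genes within a list. Where a gene's signals from several lists are printed together, their sizes are not to be compared between lists. In the optimal list, the 545 peaks the authors kept after their reproducibility procedure, 4 of the 70 genes carried a summit, which was 5.71% (95% exact interval 1.58 to 13.99). Among the other 19903 protein-coding genes the share was 2.39%, inside that interval.

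The relaxed lists, which hold peaks and background alike, gave larger shares. In the list of 30000 peaks called on the pooled replicates, 51 of the 70 genes carried a summit, 72.9% (interval 60.9 to 82.8), against 44.9% of all other genes. The list of replicate 1, also 30000 peaks, put a summit at 46 genes, 65.7% (53.4 to 76.7), against 45.3% of the others. The shorter list of replicate 2, 17926 peaks, put one at 42 genes, 60% (47.6 to 71.5), against 31.1%. A summit from each of the replicate lists lay in the windows of 34 genes, 48.6% (36.4 to 60.8), against 20.2% of the others. These summits need not be the same peak. The strongest lay within 100 bp of each other for 20 of the 34, 58.8% against 43.2% for the others. In each relaxed list the share of all other genes lay below the interval of the members. With a window of 500 bp upstream to the 5′ end the pooled shares were 44.3% against 23.3% and the shares in both replicates 30% against 8.31%. With only the 10000 strongest peaks of each replicate, the share in both was 28.6% against 9.61%. The intervals cover the counting of genes only. Read depth is unknown, since the lists hold no read counts, and the genes are not replicates of a condition, so no test was made of these differences.

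The members stood above the other genes from the 1000 strongest pooled peaks on. Among the 1000 pooled peaks of highest signal, those at or above 30.8, 13 members carried a summit, 18.6% (10.3 to 29.7), against 4.48% of the others. Among the 2000 highest, 20 members did, 28.6% (18.4 to 40.6), against 7.86%. Among the 5000 highest, 30 members did, 42.9% (31.1 to 55.3), against 14.0%. The cytosolic ribosomal protein genes, 78 genes named rpl- or rps-, lay above the mitochondrial ones at every one of these ranks, with 56.4% at 1000, 70.5% at 2000 and 85.9% at 5000.

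**Figure D1:**
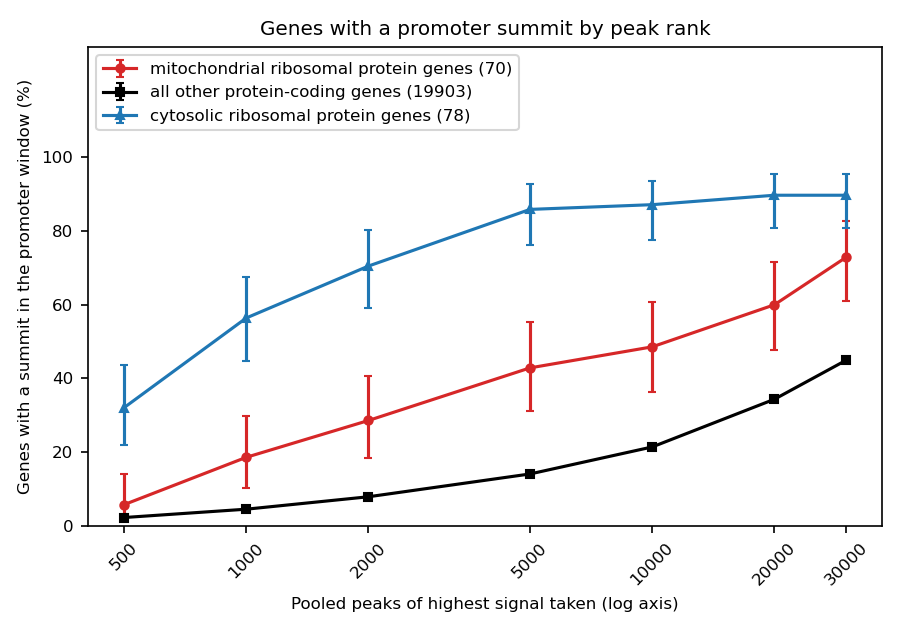
Share of genes with a summit in the promoter window (vertical axis, percent) as more of the pooled peaks are taken in order of signal (horizontal axis, log scale), for the 70 mitochondrial ribosomal protein genes, the 78 cytosolic ones and the other 19903 genes; bars are 95% exact intervals on the counting of genes. The mitochondrial curve runs between the other curves, from 5.71% at the 500 strongest peaks to 72.9% at all 30000, where the cytosolic genes reach 89.7% and the other genes 44.9%.

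The strongest promoter summit of all members lay at mrps-7, which encodes uS7m, a protein of the head of the small subunit. The gene stands at chrIV:14766773-14767730 on the minus strand. Its pooled signal was 65.2, the rank 94 among 30000 peaks, and the summit lay 182 bp upstream of the 5′ end in intergenic sequence. The signal was 26.4 in replicate 1 and 32.5 in replicate 2, ranks 214 and 177, and the replicate summits lay 6 and 8 bp from the pooled one. Both replicates thus placed it high and at nearly the same base. The same summit lay in the window of Y57G11C.3, which is transcribed away from mrps-7 across a gap of 471 bp.

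The other members with an optimal summit were mrpl-23, mrpl-17 and mrps-21. At mrpl-17, which encodes bL17m of the large subunit, the pooled signal was 51.7, with 26.3 in replicate 1 and 26.5 in replicate 2, and the summit lay 146 bp upstream in the gap of 422 bp that separates the gene from vbh-1 on the opposite strand. At mrpl-23, which encodes uL23m, a protein beside the exit of the nascent chain tunnel, the pooled signal was 56.1, with 27.2 and 26.2 in the replicates. That summit lay 990 bp upstream in an intron, 51 bp from the snoRNA gene T08B2.13, and mrpl-23 itself follows fars-1 on the same strand after 96 bp. At mrps-21, a small subunit gene, the pooled signal was 42.6, with 18.4 and 21.6 in the replicates. Its summit lay 975 bp upstream, 291 bp from the 5′ end of F29B9.11, which precedes mrps-21 on the same strand. So the summits of mrps-7 and mrpl-17 lay close to the members' own 5′ ends, and those of mrpl-23 and mrps-21 lay near the far edge of the window.

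Just below the optimal list stood mrpl-12, which encodes the stalk protein that contacts translation factors in bacterial ribosomes. Its pooled signal was 38.7, rank 549, where the weakest optimal peak had 38.9. The gene had 12.9 in replicate 1 and 27.3 in replicate 2, ranks 2488 and 300, so only replicate 2 placed it among its 545 strongest peaks. At the outer edge of the window, mrpl-40 was counted from a summit 999 bp upstream with a pooled signal of 34.1, 176 bp from the 5′ end of attf-3. At mrps-28 an optimal peak of signal 89.7, rank 33, stood 1027 bp upstream and was not counted.

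The genes that follow in order of pooled signal were mrpl-28 at 36.3, mrps-17 at 36.1, mrpl-40 at 34.1, and mrpl-49 and mrpl-55 both at 33.5. After them came mrpl-45 at 32.4, mrps-28 at 32.2, mrps-35 at 32.0, mrps-15 at 30.7 and mrps-10 at 30.6. All 15 genes down to mrps-10 had a summit in both replicate lists. The pooled list that ranks them was called on those same replicates, and the share among other genes of like signal was not counted. The replicates ranked some of them far apart. At mrps-17, which encodes uS17m, an early rRNA-binding protein in bacteria, the signal was 25.2 in replicate 1 and 10.5 in replicate 2, ranks 244 and 7224. At mrpl-55 the ranks went the other way, 10716 in replicate 1 and 312 in replicate 2. The signals there were 8.64, at a summit 222 bp from the pooled one, and 27.0. The signal at mrpl-28, which encodes bL28m, was 20.6 in replicate 1 and 15.1 in replicate 2, and its summit, 125 bp upstream, lay in no other gene's window. At mrpl-45, whose mammalian counterpart attaches the mitochondrial ribosome to the inner membrane, the replicates gave 13.4 and 21.9. The summit of mrpl-49, 192 bp upstream, lay in the gap of 519 bp between it and rpl-28, a cytosolic ribosomal protein gene on the opposite strand, so a mitochondrial and a cytosolic ribosomal gene shared 1 peak of signal 33.5, with 14.0 and 19.3 in the replicates.

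**Figure D2:**
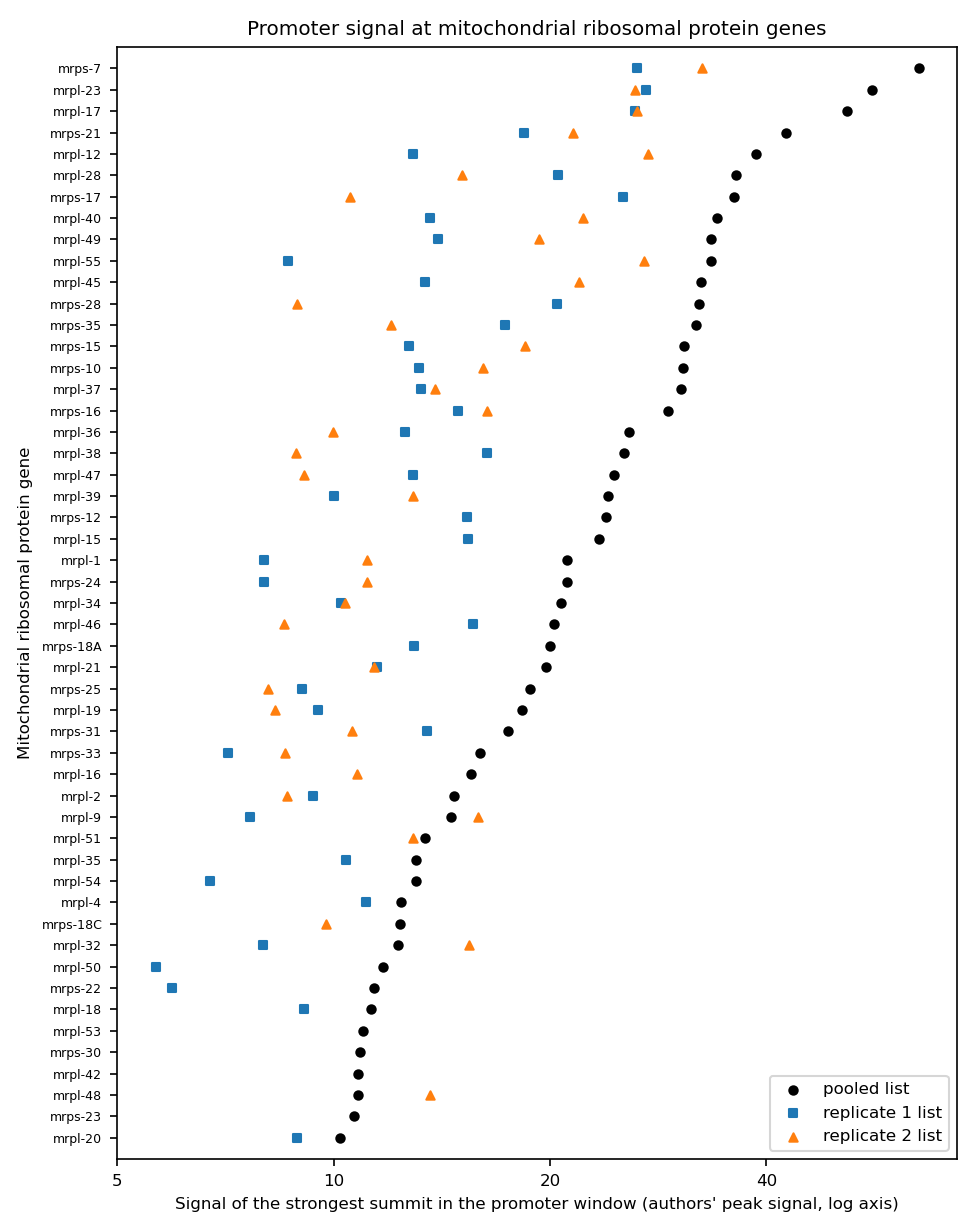
Signal of the strongest promoter summit (horizontal axis, the authors' peak signal, log scale) for each of the 51 members with a pooled summit (vertical axis), in the pooled list (black circles), replicate 1 (blue squares) and replicate 2 (orange triangles); a missing symbol means that list had no summit in the window. Pooled signals run from 10.2 at mrpl-20 to 65.2 at mrps-7, and symbols of both replicates accompany all of the 15 strongest genes. Those genes are ranked by the pooled list, which was called on the same replicates. Each list has its own signal scale.

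Over the 51 genes with a pooled summit the median signal was 20.7 (quartiles 13.0 to 31.3), against 15 (12.3 to 20.5) over the other genes with one. In replicate 1 the medians were 12.7 and 8.58, and in replicate 2 they were 12.4 and 10.7. Members were thus the higher in each of the 3 lists, and their quartile ranges overlapped those of the other genes in each. The quartiles were 8.71 to 15.2 against 6.89 to 11.4 in replicate 1, and 9.81 to 16.3 against 8.95 to 14.2 in replicate 2. At the low end, mrpl-20, mrps-23, mrpl-48, mrpl-42, mrps-30 and mrpl-53 had pooled signals of 10.2 to 11.0, close to the list's lowest value of 10.1.

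The intervals of the subunits overlapped. Of the 41 large subunit genes 33 carried a pooled summit, 80.5% (65.1 to 91.2), and 21 had one in both replicates, 51.2% (35.1 to 67.1). Of the 29 small subunit genes 18 carried a pooled summit, 62.1% (42.3 to 79.3), and 13 had one in both, 44.8% (26.4 to 64.3). The 44.9% of all other genes with a pooled summit lay inside the interval of the small subunit and below that of the large one, and the 20.2% with one in both replicates lay below both. Each subunit supplied 2 of the 4 genes with an optimal summit, and the median pooled signals were 20.2 and 22.5. The names follow gene nomenclature and not always the protein, since the RefSeq product of mrps-18C is uL3m, a large subunit protein at the peptidyl transferase centre, and that of mrps-27 is an Ig-like domain-containing protein.

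The systematic names in the RefSeq products sort proteins by ancestry, u for those found in all kingdoms, b for those shared with bacteria and m for those particular to mitochondria, and 48 members had one. Beside them stand the 44.9% of all other genes with a pooled summit and the 20.2% with one in both replicates. Of 21 genes for u proteins, 13 carried a pooled summit, 61.9% (38.4 to 81.9), and 7 a summit in both replicates, 33.3% (14.6 to 57.0), so both intervals cover the share of the other genes. Of 9 genes for b proteins, 8 carried a pooled summit, 88.9% (51.8 to 99.7), and 7 a summit in both, 77.8% (39.99 to 97.2). Of 18 genes for m proteins, 15 carried a pooled summit, 83.3% (58.6 to 96.4), and 10 a summit in both, 55.6% (30.8 to 78.5). An optimal summit stood at 2 u genes, mrps-7 and mrpl-23, at 1 b gene, mrpl-17, and at none of the 18 m genes, a count of 0 that allows a share of up to 18.5% (exact interval). The groups are small and their intervals overlap.

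The summits of the members lay mostly upstream of the genes, as did those of cytosolic ribosomal protein genes and the optimal summits of other genes. Of the 51 strongest pooled summits by gene 45 lay upstream of the 5′ end, 88.2%, against 74.7% for the other genes, and 24 lay within 300 bp upstream, 47.1% against 31.3%. For the cytosolic ribosomal protein genes these shares were 97.1% and 45.7%, and for the optimal summits of other genes 94.3% and 55.9%. The median position was nearly the same, -225 bp relative to the 5′ end for members and -232 bp for the others. The quartiles were -621.5 to -124.5 bp for members and -549 to 3 bp for the others. Counting every summit around the genes, the fullest 100 bp bin ran from 200 to 101 bp upstream and held 13 summits, 18.6 per 100 member genes, where the other genes had 5.86. These rates count genes with and without a summit, and a larger share of members carried one.

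**Figure D3:**
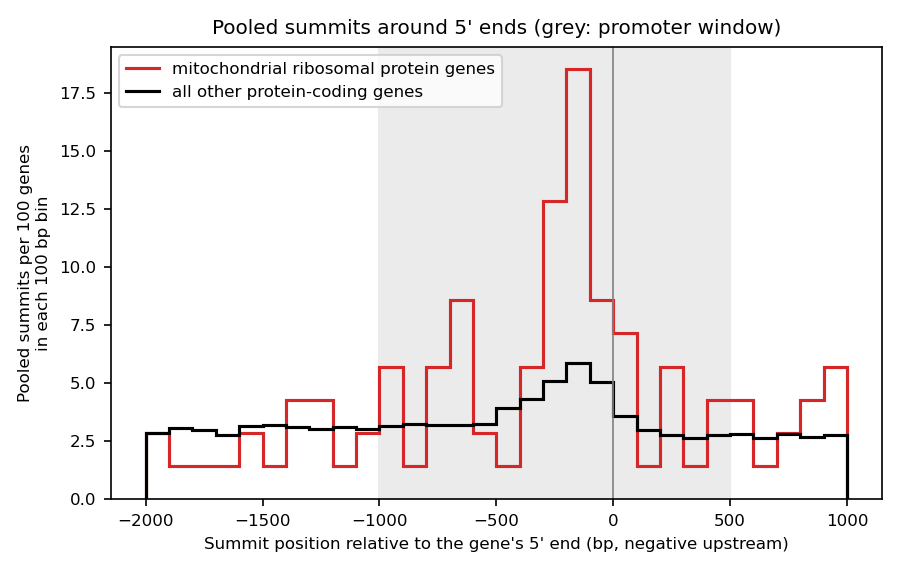
Pooled summits per 100 genes (vertical axis) in bins of 100 bp relative to the gene's 5′ end (horizontal axis, negative upstream), for the 70 members (red) and all other protein-coding genes (black), with the promoter window in grey. The members reach 18.6 in the bin from 200 to 101 bp upstream, where the other genes reach 5.86.

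Many members face a neighbour on the opposite strand. The nearest gene within 1000 bp upstream was on the opposite strand, here called head to head, for 27 members, 38.6%, against 21.1% of the other genes. Neighbours that overlap the 5′ end count too, with a gap of 0 bp, as prp-40 at mrps-23 and sws-1 at mrps-35. Of these 27, 23 carried a pooled summit, 85.2%, against 53.5% of other genes in that layout, and 18 had a summit in both replicates, 66.7% against 32.4%. An optimal summit stood at 2, 7.41% against 5.80%. Their median pooled signal was 30.5, against 18.2 for other genes in that layout. Of the 15 members with the highest pooled signal, 11 were head to head, and 12 had their summit in another gene's window too. Strong peaks of other genes often had this layout. Of the 476 other genes with an optimal summit, 244 were head to head, and 57.6% had that summit in another gene's window too. Among cytosolic ribosomal protein genes with a pooled summit the share in another gene's window was 70%. Over all 51 genes with a pooled summit the summit also lay in another gene's window for 30, 58.8% against 29.2% of the others, and the member's was the nearest 5′ end for 33, 64.7% against 84.0%. A peak in the gap between head to head genes cannot be assigned to either gene from these lists. Some summits of head to head members lay outside that gap. At mrpl-51 the summit lay 755 bp upstream, where the gap was 53 bp, and at mrps-25 it lay 282 bp downstream of the 5′ end.

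The 35 members behind a same-strand neighbour within 1000 bp, 50% against 30.7% of the other genes, carried a pooled summit in 21 cases, 60% against 42.9%. A summit of both replicates stood at 11, 31.4% against 17.2%, and an optimal one at 2, 5.71% against 1.52%. Their median signal of 14.7 was close to the 14.5 of other genes in that layout. The median gap to the neighbour was 106 bp, against 304 bp for the others. The 8 members with no neighbour within 1000 bp carried a pooled summit in 7 cases, 87.5% against 42.4%, and in both replicates in 5, 62.5% against 16.7%. Among them were mrpl-28 and mrpl-55 with signals of 36.3 and 33.5.

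Gaps of about that length are usual between genes of a nematode operon, so same-strand runs were built by stepping upstream while the gap was at most 200 bp. This definition was chosen after the data were seen, and a run is a layout and not evidence of a shared transcript. By it, 22 members, 31.4%, stood inside a run behind another gene, against 12.2% of the other genes. Of the 22, 12 carried a pooled summit in their own window, 54.5% (32.2 to 75.6), against 44.6% of other genes inside runs. The window of the run's leading gene carried one for 18, 81.8% (59.7 to 94.8), against 63.3%. Both of these shares of the other genes lay inside the members' intervals. A summit of both replicates stood in the own window of 5, 22.7% (7.82 to 45.4), against 17.4% of the others. It stood in the leading gene's window of 14, 63.6% (40.7 to 82.8), against 37.7%. By these 2 counts both kinds of gene showed summits more often at the head of the run than in their own window. In the optimal list the members did not, with 2 of the 22 in either window, 9.09%. The other genes had 0.991% in their own window and 6.61% in the leading gene's. The 48 members not inside a run carried a pooled summit in 39 cases, 81.2% against 44.9%, and in both replicates in 29, 60.4% against 20.6%.

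Individual runs went either way. Behind vps-37, an ESCRT gene, mrpl-48 had a pooled signal of 10.8 in its own window, while the window of vps-37 held an optimal peak of 46.6, with 22.9 in replicate 1 and 27.3 in replicate 2. Behind atp-2, which encodes the beta subunit of the ATP synthase, mrps-26 had no pooled summit, and the leading window had 37.8, with 21.0 and 20.1 in the replicates. The genes mrps-2 and mrpl-4 follow natc-1 in the same run, whose leading window had 31.1, with 23.1 and 8.37 in the replicates, where mrpl-4 had 12.4 and mrps-2 none. Of 6 members with different pooled summits in both windows, all 6 had the lower signal in their own. The matching count for other genes was not made. At mrps-21, mrpl-1 and mrpl-21 the same peak served both windows. In the pooled list the reverse held for 3 members with a summit of their own and none at the leading gene. They were mrpl-23, with 56.1 behind fars-1, mrps-22, with 11.4 behind rpb-6, and mrps-30, with 10.9 behind cdc-26. The signals of mrps-22 and mrps-30 were near the list's lowest value of 10.1. In the replicate lists cdc-26 had summits of 8.16 and 8.01, where mrps-30 had none. The window of fars-1 had a replicate 1 summit of 8.72, where mrpl-23 had 27.2.

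**Figure D4:**
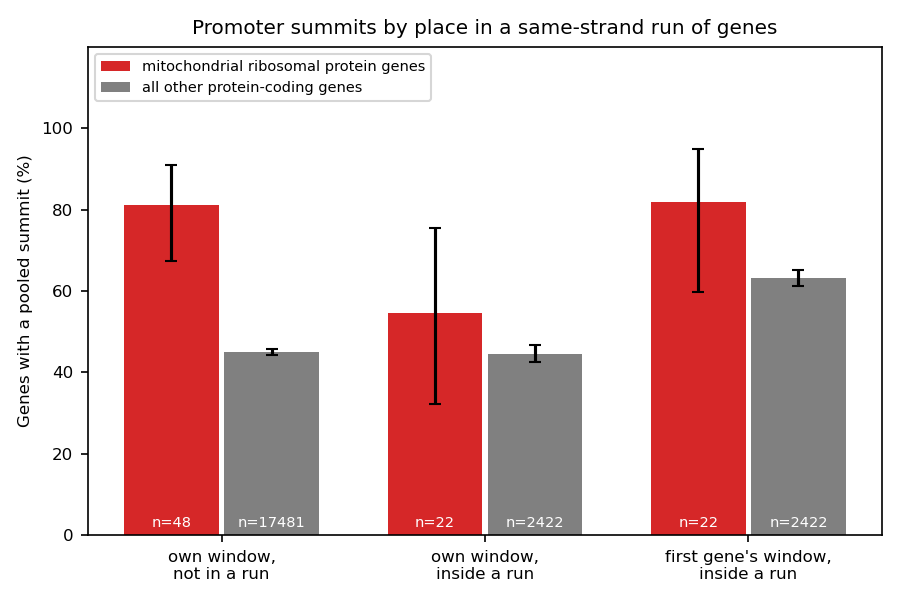
Share of genes with a pooled summit (vertical axis, percent) in the own window of genes not inside a same-strand run, in the own window of genes inside one, and in the window of the leading gene of that run, for members (red) and other protein-coding genes (grey); bars are 95% exact intervals on the counting of genes. Members inside runs stand at 54.5% in their own window and at 81.8% in the leading gene's window.

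No summit of any of the 4 lists lay in the window of 12 members, 17.1% against 38.9% of the other genes. They were mrpl-10, mrpl-22, mrpl-24, mrpl-41, mrpl-44, mrps-2, mrps-5, mrps-6, mrps-11, mrps-18.C, mrps-18B and mrps-27. Of these 12, 9 lay behind a same-strand neighbour and 6 were inside a run, and in 5 of the 6 the leading gene carried a pooled summit, with sel-1 ahead of mrps-5 at 21.4 and uev-1 ahead of mrps-27 at 27.1. Over all other genes inside a run the leading window carried one in 63.3% of cases. For other genes with no summit in any list these counts were not made. A further 4 genes, mrpl-42, mrpl-53, mrps-23 and mrps-30, had a pooled summit and none in either replicate list, all with signals of 11.0 or less. They were 5.71% of the members, near the 4.89% of the other genes. Genes with a summit in a replicate list but none in the pooled list were mrpl-11 and mrps-26 in replicate 1, mrpl-13, mrpl-30, mrps-9 and mrps-14 in replicate 2, and mrps-34 in both. In that order the shares were 2.86% against 10.7% of the other genes, 5.71% against 4.16% and 1.43% against 1.30%.

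The replicates ordered the members loosely. Over the 34 genes with a summit in both, the rank correlation of the signals was 0.34 and Pearson's r on log2 signals was 0.39, given as descriptions across genes that share the same 2 libraries. Over the other 4015 genes with both, they were 0.41 and 0.53. The strongest summits of the replicates lay within 100 bp of each other for 20 of the 34, 58.8% against 43.2%, and the median shift was 41 bp against 133 bp. Taking the 545 strongest peaks of each replicate, replicate 1 had 6 members, mrpl-17, mrpl-23, mrpl-28, mrps-7, mrps-17 and mrps-28, which was 8.57% against 2.47% of the others. Replicate 2 had 5, mrpl-12, mrpl-17, mrpl-23, mrpl-55 and mrps-7, which was 7.14% against 2.21%. The genes mrps-7, mrpl-17 and mrpl-23 were in both sets.

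**Figure D5:**
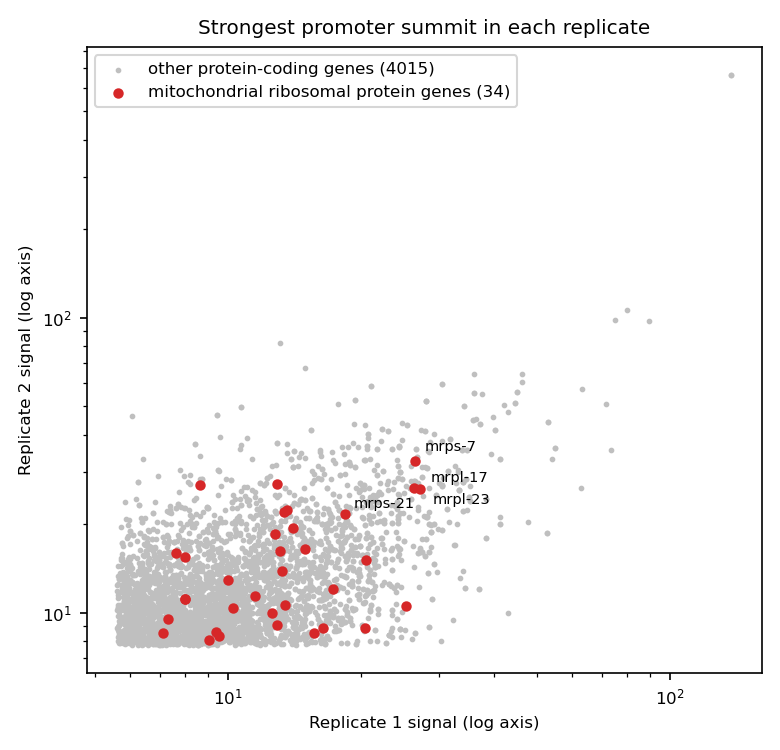
Signal of the strongest promoter summit in replicate 1 (horizontal axis) and replicate 2 (vertical axis), both on log scales in the authors' peak signal, for the 34 members (red) and 4015 other genes (grey) with a summit in both lists. The members lie within the cloud of the other genes, with mrps-7, mrpl-17 and mrpl-23 above 26 in both libraries.

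The members lie on all autosomes and none is on the X chromosome. All 11 on chromosome IV carried a pooled summit, against 43.5% of the other genes there. The counts were 15 of 22 on III against 55.5% of the others, 11 of 15 on I against 53.2%, 7 of 10 on V against 37.9% and 7 of 12 on II against 42.7%. Of the 66 members with no optimal summit in the window, 8 had one outside it within 5000 bp of the 5′ end, 12.1% (5.38 to 22.5), against 4.40% of the other genes without one in the window. Among them was mrps-6, 1258 bp upstream with a signal of 55.8 and nearest to rpn-8, a proteasome gene. The others were mrps-28 and mrpl-48, given above, mrpl-32 at 2633 bp with 70.0, nearest to hsp-110, and mrpl-20 at 2763 bp with 49.6, whose nearest 5′ end was that of mrpl-20. Farther off were mrpl-54 with 57.6, in the 5′ UTR of the elongation factor gene eef-2, mrpl-35 with 49.2 and mrpl-34, downstream, with 40.6.

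In annotation, base content and the 5 words searched, the members' summits were close to the promoter summits of other genes. The 50 distinct summits of members, 1 of which served both mrpl-1 and mrps-24, lay in intergenic sequence in 29 cases, 58.0%, the same share as the 7672 summits of the other genes. A further 9 lay in coding exons, 6 in introns, 3 in 5′ UTRs and 3 in 3′ UTRs. The 101 bases around them held 38.6% G and C (SD 9.84 over 50 summits), against 37.2%. At least 1 of the homeodomain words (TAATTG, the related TAATTA as well as TAAACG), searched on both strands, stood within 50 bp of 9 summits, 18% (8.58 to 31.4), against 14.4% of the others. GACGCA or GCGCCA stood at 5, 10% (3.33 to 21.8), against 8.88%. A tRNA, snoRNA or snRNA gene lay within 500 bp of 2 summits, 4% against 1.99%. The other genes' shares of both kinds of word lay within the members' intervals, and for the homeodomain words the order turned at other widths, with 4% of members against 7.27% within 25 bp and 24% against 27.6% within 100 bp.

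The word CGCAAAC was picked after the sequences of the strongest summits had been read, so its share is a description with no test. On either strand it stood within 50 bp of 7 of the 50 members' summits, 14% (5.82 to 26.7), against 165 of 7672, 2.15%, for the other genes. Among summits of the 5000 strongest pooled peaks it stood at 7 of 29 for members, 24.1%, and at 97 of 2157 for the others, 4.50%. The holders were mrpl-12, mrpl-28, mrpl-55, mrps-10, mrps-15, mrps-16 and mrps-28, whose pooled signals ran from 29.2 to 38.7. Of these, mrpl-12, mrpl-28, mrpl-55 and mrps-28 are among the printed sequences from which the word was picked. The members' shares include them and are raised by that choice. None of the 67 summits at cytosolic ribosomal protein genes held it, which allows a share of up to 5.36% (exact interval). None of the 4 members with an optimal summit was among the holders.

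Other genes of mitochondrial translation were set beside the ribosomal proteins. Of 24 names in a list of mitochondrial translation factors, aminoacyl-tRNA synthetases and dap-3, 17 were in the annotation under those names. A pooled summit stood at 8 of the 17, 47.1% (22.98 to 72.19), against 44.9% of all genes outside the ribosomal protein set. A summit of both replicates stood at 6, 35.3% (14.21 to 61.67), against 20.2% of those genes. Both intervals cover the shares of those genes. The members' pooled share of 72.9% lay just above the pooled interval. Their share in both replicates, 48.6%, lay inside the interval for both. The exception in rank was ears-2, the mitochondrial glutamyl-tRNA synthetase, with an optimal summit 13 bp upstream of a signal of 54.8, and 31.3 and 22.4 in the replicates, also in the window of uncp-18. Next were gfm-1, elongation factor G, at 22.5, yars-2 at 20.8, tufm-1, elongation factor Tu, at 19.9 and aars-1, the alanyl-tRNA synthetase, at 17. The gene dap-3, whose product is the small subunit protein mS29 and which the naming rule misses, had no summit in any list.

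A further 10 genes, dap-3 among them, had a mitochondrial ribosomal protein as RefSeq product under another name. A pooled summit stood at 8 of them, 80% (44.4 to 97.5), led by R186.8 at 25.3 and let-630 at 24.8. The share of all genes outside the ribosomal protein set was 44.9%, just inside that interval. A summit of both replicates stood at 2, 20% (2.52 to 55.6), near the 20.2% of those other genes. An optimal summit stood at none, against 2.39%. Of 6 complex I genes named nuo-, 5 carried a pooled summit, 83.3% (35.9 to 99.6), and 2 a summit in both replicates, 33.3% (4.33 to 77.7). None had an optimal one. The intervals of these 6 genes cover the shares of the other genes. The cytosolic ribosomal protein genes had an optimal summit at 25 of 78, 32.1% (21.9 to 43.6), a pooled one at 70 and one in both replicates at 66, 84.6%, with a median pooled signal of 33.7. Their shares lay above the upper bounds of the mitochondrial ribosomal genes in each of those lists.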

How the data were processed

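Chromatin immunoprecipitation and sequencing was done on 2 biological replicates, which keep their numbers from the labels and from which the authors deposited 4 lists of peaks on ce11: optimal, pooled, replicate 1 and replicate 2. Per the text deposited with them, peaks were called loosely with a control alignment, and a procedure based on the irreproducible discovery rate then gave the optimal list. Aligner, caller and threshold: not given in the sources used here. These deposited lists hold a signal per peak and a score per peak. The score was below 0 for 27058 of the 30000 pooled peaks and was not used. The optimal list equals the 545 pooled peaks of highest signal. Lists on ce10 were not used here.

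Summits (peak start plus offset, 1-based) were joined to gene 5′ ends of Ensembl release 115 with Python 3.11.15, numpy 2.4.6 and pandas 2.3.3. Of several summits in a window the strongest was taken. Exact binomial intervals came from SciPy 1.17.1 and figures from matplotlib 3.10.9. The window join was tested on simulated data, where 200 placed summits gave 0 wrong assignments. All samples form 1 group, so nothing was tested between groups. Products came from RefSeq. Named genes were those with an optimal summit, the 15 of highest pooled signal, those with an optimal summit within 5000 bp, those with no summit in either replicate list, and the leading genes of the mitochondrial translation list; others were named after their values were seen. The members, lists and windows were chosen with earlier results of these data known.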

Additional observations from a re-analysis of the deposited data

How the results depend on the processing

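Of 38 alternatives, 26 left a value within its interval and on the same side of the other genes, among them every alternative for the optimal list. The pooled share of 72.86% was 44.29% with a window of 500 bp upstream to the 5′ end (others 23.32%), 54.29% when a summit counted only for the nearest 5′ end (38.96%), 42.86% and 48.57% with the 5000 and 10000 strongest peaks (14.05% and 21.38%), and 85.71% when the window of the leading gene of a run also counted (48.6%), a choice made after seeing the data. With 1 replicate's list in place of the pooled one it ranged from 60% (replicate 2 alone; others 31.08%) to 65.71% (replicate 1 alone; 45.26%). The share in both replicates, 48.57%, was 30% with the shorter window (8.305%), 32.86% with the nearest 5′ end (15.4%), 28.57% with the 10000 strongest peaks of each replicate (9.612%) and 64.29% with leading genes (23.62%). In every one of these the members stayed above the other genes. The homeodomain words reversed: their share of 18% was above the others at 50 bp, but 4% against 7.273% at 25 bp and 24% against 27.63% at 100 bp; the cause was not tested. No paired analysis was possible because the replicates form 1 group and no groups were compared. Read depth is unknown, so a gene without a summit is one where none was listed at these cut-offs.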
